A study of Xenopus laevis with 6 samples.

Results

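The genes described here encode the extracellular matrix of frog ectoderm, the enzymes that modify collagen and the cell surface receptors that hold the matrix. They were chosen by name: a gene belonged if its platform symbol, without the final .L or .S, began with the name of a collagen, laminin, fibronectin, SPARC, integrin, fibrillin, fibulin, nidogen, thrombospondin, syndecan or glypican, or of a similar matrix gene. The name rule uses no measured value, and each symbol was represented by its probe set with the highest mean signal over all 6 arrays, treated ones included. The array held 71 such symbols of 7531 in all, from 63 genes when the L and S copies are joined. Xenopus laevis carries many genes as a pair of related copies, L and S (homeologs), and a probe set named for one copy can also detect the other.

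RNA was measured in animal pole explants of Xenopus laevis, 4 untreated samples and 2 samples injected with NICD, 1 Affymetrix array per sample. NICD is the intracellular domain of the receptor Notch, which enters the nucleus and activates target genes. Explants were taken at stage 8 and kept in culture up to stage 20, judged from sibling embryos; the design text calls the untreated ones pooled. The labels name no strain, no dose, no control injection and no separate experiments, so NICD and injection as such cannot be told apart, and the p-values reflect only how these samples vary, and that variation may be technical.

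The matrix is built outside the cell from fibrous proteins such as collagens and fibronectin, from laminin, nidogen and collagen IV sheets called basement membranes, and from sugar-rich molecules such as hyaluronan and proteoglycans. Integrins, each a pair of an alpha and a beta subunit, bind it and couple it to the actin skeleton, while syndecans and glypicans carry heparan sulfate chains that hold matrix proteins and growth factors. In the frog blastula, the inner surface of the animal pole assembles fibronectin fibrils that depend on integrin alpha 5 beta 1 and are used in the movements of gastrulation.

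The values are MAS5 signals, a linear brightness per probe set. The number of arrays limits the precision of every value here. The arrays had medians between 155.6 and 178.9 and fell on 2 processing days: NICD 1 shared day 1 with untreated 1 and 2, and NICD 2 shared day 2 with untreated 3 and 4. Fluidics module 4 washed both NICD arrays and no untreated one, and its effect cannot be told apart from that of NICD. For the gapdh control, the signal at the 3' end over that at the 5' end, a measure of RNA integrity, was 4.21 in NICD 1, above the untreated range of 2.70 to 3.54, and 2.98 in NICD 2; its part in the results was not tested. Fewer cells of one type and less RNA per cell cannot be told apart in these bulk samples.

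Matrix and integrin genes that changed were mostly higher in NICD explants, led by sparc.S, which encodes a collagen-binding secreted protein. Of the 71 genes, 30 passed the filter on low values (signal above the 40th percentile of the array in at least 2 arrays) and were tested with limma, with p-values adjusted over all 10368 probe sets tested and a threshold of 0.05. Of the 30, 10 rose, 2 fell and 18 did not pass the test. Over all tested probe sets 31.6% changed, against 12 of the 30. By direction, 15.3% rose and 16.2% fell, and with 1 probe set per symbol 16.7% rose and 14.6% fell, against 33.3% and 6.67% of the 30. The median log2 change of the 30 was 0.40, beside 0.10 for all 5667 tested symbols. Within day 1 the median of the 30 was 0.58 and within day 2 it was 0.30. All changes are differences of log2(signal + 32), a scale that understates changes at low signal. With the day as a block, 12 rose and 2 fell (20.4% and 19.8% of all probe sets, or 40.2% in either direction). Both NICD arrays lay above the untreated range for 12 of the 30 and below it for 3 (26.7% and 24.2% of all tested probe sets). A change of at least 2-fold past the test was seen for 10 of the 30 (22.0% of all). Without NICD 2 the counts were 4 and 1 (7.29% and 8.94% of all), and without NICD 1 they were 8 and 2 (11.2% and 13.9% of all), with the remaining NICD array assumed to vary like the others. Without untreated 1, untreated 2 or untreated 4, plod3.L was no longer called lower.

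**Figure D1:**
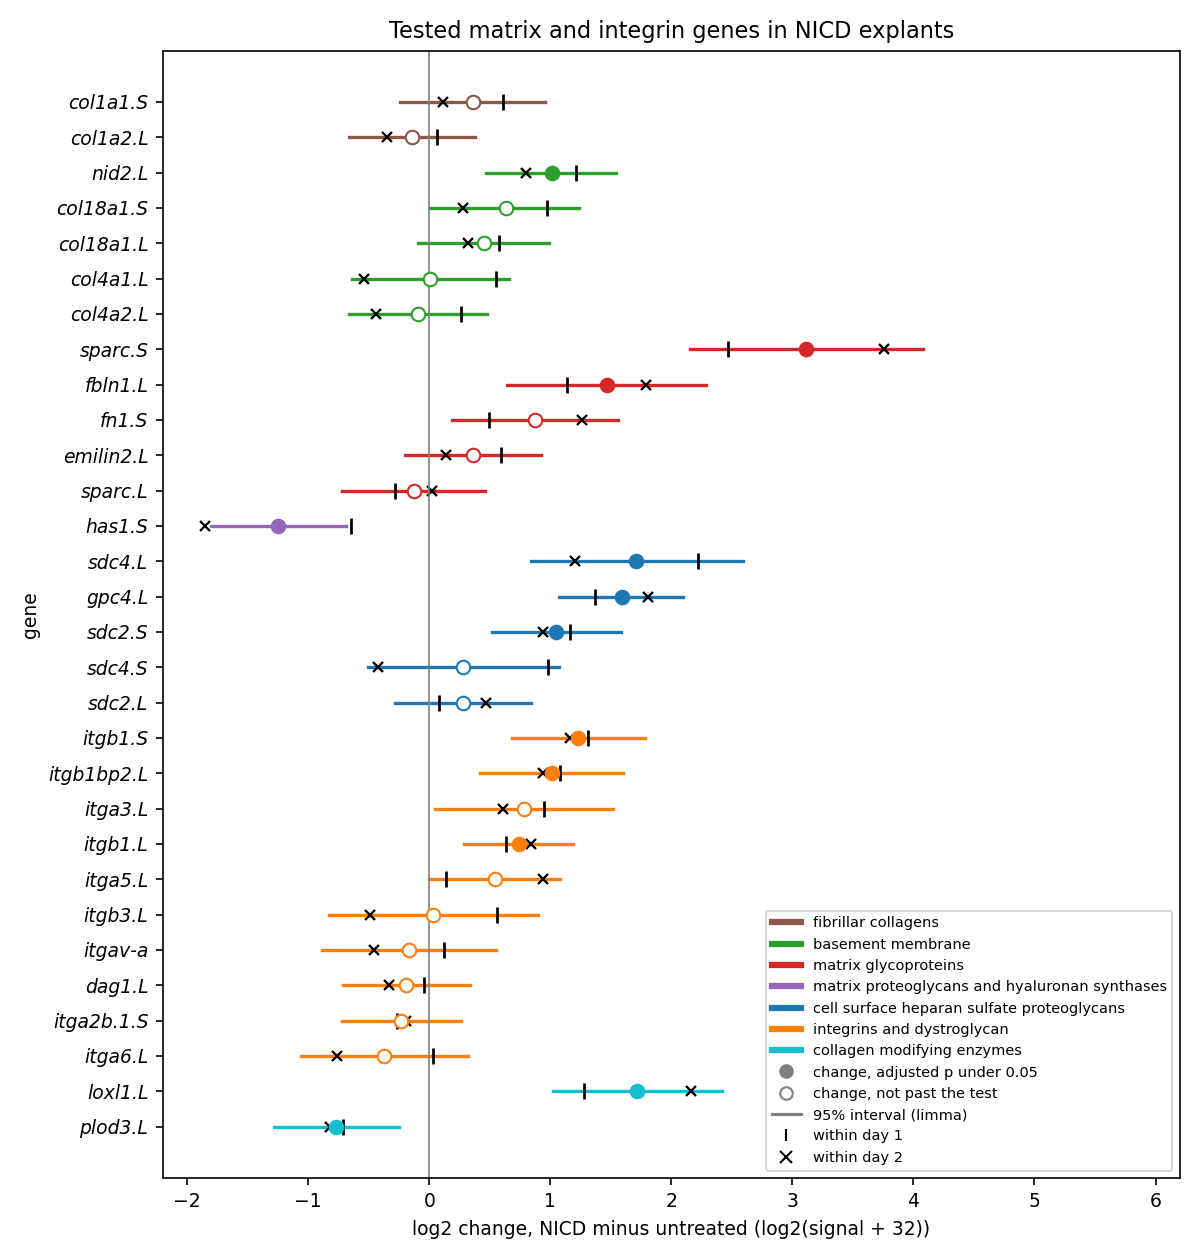
Log2 change (NICD minus untreated, log2(signal + 32)) of the 30 tested matrix and integrin genes, by role, with the 95% interval of limma (4 and 2 arrays); filled points passed the test, and the bar and cross marks give the change within each day. The change of sparc.S, 3.11, lies farthest to the right, and has1.S, at -1.25, farthest to the left.

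Most members were faint on this array. The 41 members that were not tested had a median signal of 39.6, and their highest signal in any array was 160.3. The tested share was 42.3% for these 71 genes and 75.2% for all 7531 symbols taken by the same probe set rule. Where the untreated arrays were all under the 40th percentile, a gene entered the test only through its 2 NICD values, so the 30 are not a neutral sample of the 71. This was so for 2 of the 30, sdc2.S and itgb1bp2.L. With no filter on low values, 11 of the 71 rose and 2 fell (10.2% and 10.6% of all 15491 probe sets, 20.8% in either direction), and the median log2 change of the 71 was 0.07.

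The largest single change was that of a matrix glycoprotein, sparc.S. SPARC, or osteonectin, is secreted by many embryonic tissues and binds collagen. The signals of sparc.S were 129.7, 91.9, 27.6 and 151.8 in untreated explants 1 to 4, and 750 and 1385.8 in NICD explants 1 and 2. Both NICD arrays lay above every untreated array, and the log2 change was 3.11 ± 0.43 (SE; limma adjusted p = 0.000526), with 2.47 within day 1 and 3.76 within day 2. The probe set of the other copy, sparc.L, had overlapping groups: its signals were 106.1, 79.6, 63.5 and 118.3 in untreated explants and 70.2 and 89.5 in NICD explants. Its log2 change was -0.13, with a 95% interval of -0.72 to 0.46.

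Fibulin 1 is a secreted glycoprotein of basement membranes and elastic fibres. The fbln1.L signals were 193.4, 153.4, 64 and 66.8 in untreated and 419.4 and 304.9 in NICD explants. All NICD values were above all untreated values, and the untreated arrays of day 1 stood above those of day 2. The log2 change was 1.47 ± 0.37 (SE; limma adjusted p = 0.0132). Within day 1 it was 1.14 and within day 2 it was 1.79. The call ended without NICD 1 (limma adjusted p = 0.101) and without NICD 2 (0.0531).

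Fibronectin is the main adhesive fibril of the early frog embryo. The brightest fn1.S probe set read 6697.1, 6094.5, 3429.9 and 3271.9 in untreated and 8988.9 and 8051.7 in NICD explants. The NICD arrays were again above all untreated arrays, and the untreated arrays of day 1 were again above those of day 2. Its log2 change of 0.87 ± 0.31 (SE) did not pass the test (limma adjusted p = 0.0541). A day block brought it past (limma adjusted p = 0.00463; 0.49 within day 1 and 1.26 within day 2). It also passed without untreated 1 (limma adjusted p = 0.0213) and without untreated 2 (0.0373). Of the other fn1.S probe sets, 2 rose, by 1.11 and 1.02 on the log2 scale (limma adjusted p = 0.00658 and 0.0138), and the remaining one did not pass, with a log2 change of 0.14. The groups overlapped only for that last probe set. By their names, the brightest probe set and the 2 that rose were designed on the same target sequence. They are therefore not independent readings, and the last probe set was designed on another sequence. The probe set that rose by 1.02 is also named as one whose probes may detect other transcripts.

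Other glycoproteins were not past the test or were too faint to be tested. The elastic fibre protein emilin2.L changed by 0.36, with overlapping groups. Of the 11 untested glycoproteins, matn4.L, a matrilin known from cartilage matrix, read 2.1 to 2.9 in the 4 untreated arrays, at background, and 52.1 and 54.7 in the NICD arrays. In the fit with no filter its log2 change of 1.31 passed (limma adjusted p = 0.000483). Tenascin C, an adhesion-modulating protein of crest paths and mesenchyme, had NICD signals of 76.4 and 123.9 against 16.2 to 68.8 (tnc.L), and was not past the test without the filter (limma adjusted p = 0.0626). Further members with both NICD arrays above the untreated range were fbn3.L, a fibrillin, and both copies of thrombospondin 4, thbs4.L and thbs4.S, with group means of at most 50.25 and none past that test. In all, 19 of the 71 members had both NICD arrays above the untreated range and 8 had both below (22.5% and 19.3% of all probe sets).

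**Figure D2:**
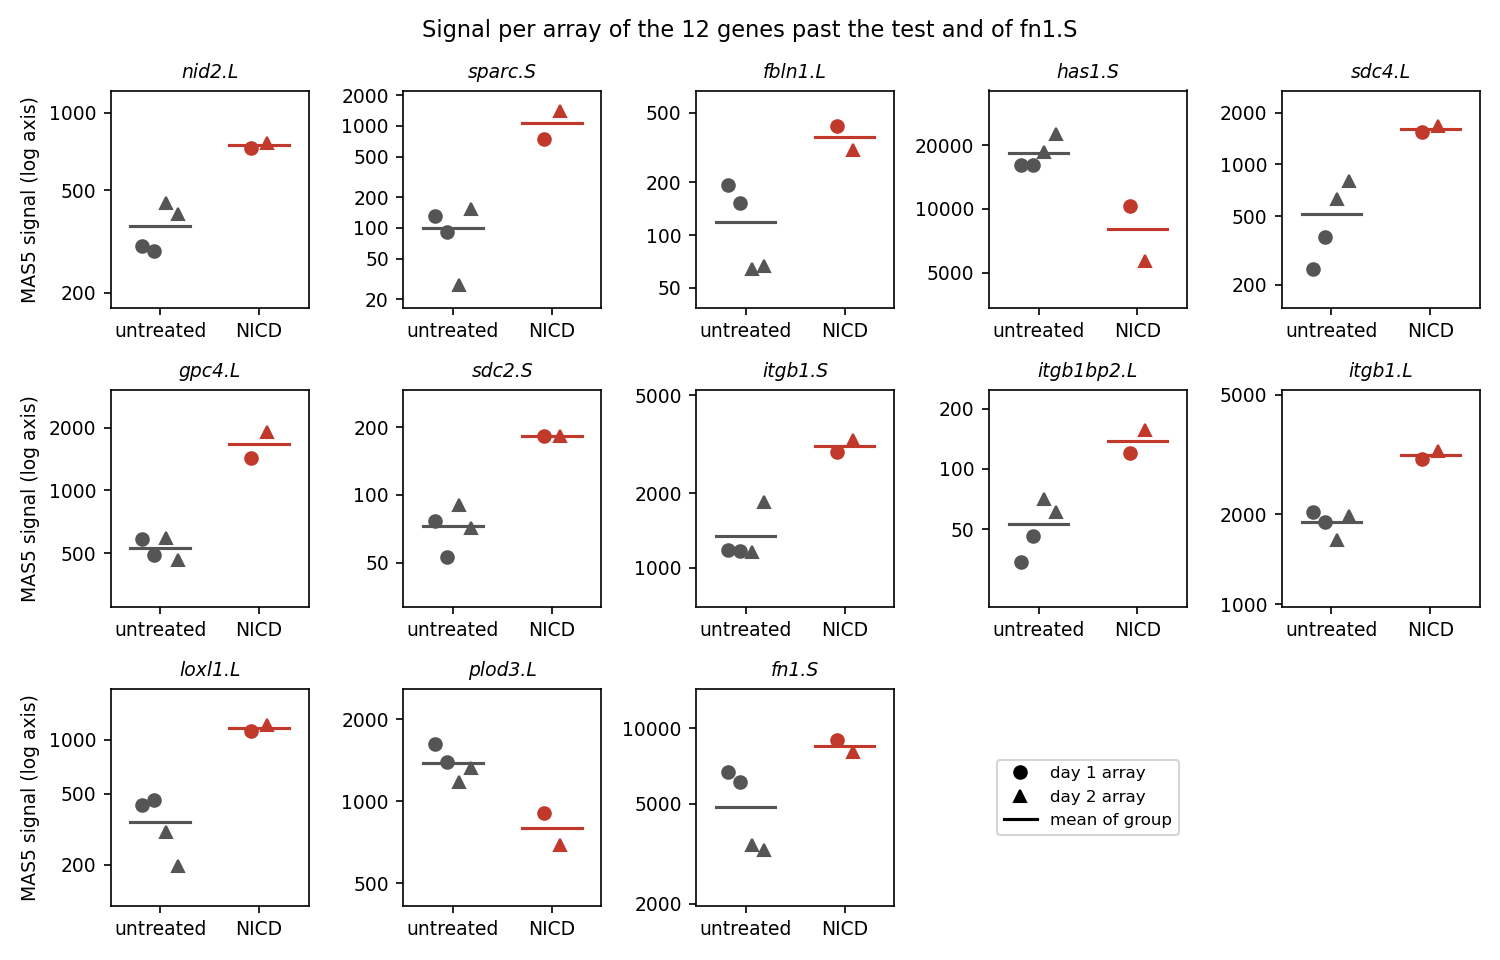
MAS5 signal (log axis) in each array for the 12 matrix and integrin genes past the test and for fn1.S; lines are group means (4 untreated and 2 NICD arrays), circles day 1 and triangles day 2. In each of the 13 panels both NICD arrays lie outside the untreated range, above it except for has1.S and plod3.L.

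Among the cell surface heparan sulfate proteoglycans, 3 of 5 tested members rose and none fell, beside 15.3% and 16.2% of all probe sets (0 lower also at an unadjusted p under 0.05 in limma, beside 20.6%). One of the 3, sdc2.S, entered the test only through its NICD arrays. Glypican 4 is a lipid-anchored proteoglycan that in the frog binds Wnt11 and is needed for convergent extension. The gpc4.L signals were 584.7, 488.1, 590 and 460.5 in untreated and 1431.4 and 1904.9 in NICD explants. Every NICD value was more than that of any untreated array, and the log2 change was 1.59 ± 0.23 (SE; limma adjusted p = 0.000672), 1.37 within day 1 and 1.81 within day 2. A second gpc4.L probe set, too faint to be tested, had overlapping groups.

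Syndecan 4 is a transmembrane proteoglycan that binds fibronectin and works with integrins at adhesion sites. The sdc4.L probe set read 246.1, 378.8, 627.7 and 803.8 in untreated and 1543 and 1677.4 in NICD explants. The NICD arrays were above all untreated arrays, and the untreated arrays of day 2 were above those of day 1. The log2 change was 1.71 ± 0.39 (SE; limma adjusted p = 0.00811), with 2.22 within day 1 and a smaller difference, of the same sign, within day 2. Without NICD 2 the limma adjusted p was 0.0728. A second tested probe set of sdc4.L, named as one whose probes may detect other transcripts, rose by 2.18 on the log2 scale (limma adjusted p = 0.00361). The sdc4.S probe set changed by 0.28 (95% interval -0.51 to 1.07), with 0.98 within day 1 and -0.42 within day 2, and its groups overlapped.

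Syndecan 2 has a role in left-right asymmetry in the frog. The sdc2.S signals were 76.8, 53.3, 89.9 and 71.6 in untreated and 183 and 183.3 in NICD explants. The NICD arrays were above all untreated arrays, with a log2 change of 1.05 ± 0.24 (SE; limma adjusted p = 0.00774); with no filter the limma adjusted p was 0.0116, and without NICD 2 it was 0.0557. The sdc2.L probe set did not pass, with a log2 change of 0.28 (95% interval -0.28 to 0.84). The faint sdc1.L and sdc3.L were not tested, nor was gpc2.L, which had both NICD arrays below the untreated range.

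Of the 22 members named for integrins or dystroglycan, 10 were tested, 3 rose and none fell, beside 15.3% and 16.2% of all probe sets (5 higher and 0 lower at an unadjusted p under 0.05 in limma, against 21.8% and 20.6% of all probe sets). The rise was in the beta 1 subunit, the shared partner of most matrix-binding alpha subunits, and in a protein that binds it. The itgb1.S signals were 1178.2, 1173.3, 1157.9 and 1847.4 in untreated and 2955 and 3299.9 in NICD explants. Untreated 4 stood above the other untreated arrays, and both NICD arrays stood above it. The log2 change was 1.23 ± 0.25 (SE; limma adjusted p = 0.00428), with 1.31 within day 1 and 1.16 within day 2.

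The itgb1.L signals were 2034.1, 1884.4, 1638.6 and 1967.6 in untreated and 3053.7 and 3249.4 in NICD explants. The groups did not overlap, and the log2 change was 0.74 ± 0.20 (SE; limma adjusted p = 0.0184). The call ended without NICD 1 (limma adjusted p = 0.0581) and without NICD 2 (0.108). The second, fainter itgb1.L probe set did not pass, with a log2 change of 0.25. The integrin beta 1 binding protein itgb1bp2.L, or melusin, is known from mammalian muscle, binds the cytoplasmic tail of beta 1 and is no integrin subunit. Its signal was 34.1 to 70.4 in untreated explants and 119.9 and 155.8 in NICD explants, a log2 change of 1.01 ± 0.26 (SE; limma adjusted p = 0.0153). It entered the test only through its NICD arrays, and with no filter the limma adjusted p was 0.019. Without NICD 2 the limma adjusted p was 0.130.

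None of the alpha subunits tested passed in the probe set with the highest mean. The laminin-binding alpha 3 (itga3.L) read 543.6, 782.2, 382 and 487.5 in untreated and 1294.9 and 676.9 in NICD explants. NICD 2 lay inside the untreated range, and the log2 change of 0.78 ± 0.33 (SE) was not past the test (limma adjusted p = 0.0975). A day block lowered its limma adjusted p to 0.0192, and without untreated 2 it was 0.0475.

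For the fibronectin-binding alpha 5 (itga5.L), 2 probe sets disagreed. The one with the highest mean read 207.4 to 269.8 in untreated and 282.3 and 438.5 in NICD explants, a log2 change of 0.54 (limma adjusted p = 0.118). The other read 198.7 to 362.9 in untreated and 126.7 and 56.2 in NICD explants, a log2 change of -1.23 (limma adjusted p = 0.0132). NICD was above the untreated range in the first and below it in the second, so no direction is given for itga5.L. The first is named as one whose probes may detect other transcripts, and the second carries no such mark. The mean that chose the first was taken over all 6 arrays, NICD included. In untreated arrays alone the second had the higher mean, 251.4 against 233.5, and with it itga5.L would have counted as lower. Of the 5 member symbols with several tested probe sets itga5.L was the only one with both signs. For itgb1.L and fn1.S the call depended on which of their probe sets was read.

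The remaining tested members of this group did not pass the test. The laminin receptor subunit itga6.L changed by -0.37 (95% interval -1.06 to 0.32), the alpha IIb relative itga2b.1.S by -0.23, the probe set named itgav-a by -0.17, the beta 3 subunit itgb3.L by 0.03 (95% interval -0.83 to 0.90) and dystroglycan, dag1.L, by -0.19. The groups overlapped for each of them other than itga2b.1.S, where the NICD arrays read 86.7 and 105.1 against 107.2 to 125.7. The tested itgb3.L probe set is named as one whose probes may detect other transcripts, so its identity is less sure. Another itgb3.L probe set, without that mark, was too faint to be tested. A second itga2b.1.S probe set, too faint to be tested, went the other way, with 57.4 and 43.8 in NICD against 28.1 to 40.8 in untreated arrays. Among the 12 untested members, itgb6.L and itga5.S had both NICD arrays above the untreated range, and itga2.L and the probe set named itgb2-a had both below. In the second, fainter probe sets of itgb6.L, itga5.S and itga2.L the groups overlapped, as they did in both probe sets of itgb2.L.

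Basement membrane genes were represented by 5 members, all tested, of which 1 rose and none fell, near the 15.3% and 16.2% of all probe sets (2 higher and 0 lower at an unadjusted p under 0.05 in limma, beside 21.8% and 20.6%). No laminin, perlecan or agrin symbol was among the names matched. Nidogen 2 links the laminin and collagen IV networks. The nid2.L signals were 303.9, 291.2, 445.8 and 404.2 in untreated and 731.3 and 762.2 in NICD explants. Both NICD arrays lay above all untreated arrays, with a log2 change of 1.01 ± 0.24 (SE; limma adjusted p = 0.0104), 1.21 within day 1 and 0.80 within day 2. Without NICD 2 the limma adjusted p was 0.0743.

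The network-forming collagen IV chains did not pass the test. The log2 change of col4a1.L was 0.01 (95% interval -0.64 to 0.66) and that of col4a2.L was -0.09 (95% interval -0.66 to 0.48). Both were higher within day 1 (0.55 and 0.26) and lower within day 2 (-0.54 and -0.44). Both copies of col18a1, whose product carries heparan sulfate and yields endostatin in mammals, had positive changes, 0.63 for col18a1.S (limma adjusted p = 0.111) and 0.45 for col18a1.L (0.191), with overlapping groups.

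The fibrillar collagens, which form the tensile fibres of connective tissue, were faint and did not pass the test. Of 5 members 2 were tested, and 0 rose and 0 fell, beside 15.3% and 16.2% of all probe sets. The counts were also 0 at an unadjusted p under 0.05 in limma, beside 21.8% and 20.6%. With 2 genes tested, such counts cannot describe the group. The log2 change of col1a1.S was 0.36 (95% interval -0.24 to 0.96) and that of col1a2.L was -0.14 (-0.66 to 0.38). Collagen II, the collagen of notochord sheath and cartilage, read 27.3 to 43.2 in untreated explants (col2a1.S), and 60 and 20.8 in NICD explants, with overlapping groups. The 6 other collagens, of types VI, VIII and IX, reached at most 92.1 in any array and were not tested.

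Hyaluronan synthase 1 fell. In the frog this enzyme, first described as DG42, makes the large polysaccharide hyaluronan. The has1.S signals were 16156.6, 16194.7, 18601.4 and 22690.3 in untreated and 10306.8 and 5693.6 in NICD explants. Both NICD arrays lay below all untreated arrays, and the log2 change was -1.25 ± 0.25 (SE; limma adjusted p = 0.00399), with -0.65 within day 1 and -1.85 within day 2. The other synthase measured, has2.S, read 7.8 to 55.9 in untreated and 12.7 and 28 in NICD explants, and was too faint to be tested. The proteoglycans of the matrix itself, versican (vcan.L), biglycan (bgn.L) and lumican (lum.L), reached at most 79.7 in any array and were not tested.

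Of 2 collagen modifying enzymes tested, 1 rose and 1 fell, beside 15.3% and 16.2% of all probe sets. So few genes cannot describe the group. Lysyl oxidase like 1 belongs to the enzymes that cross-link elastin and collagen. The loxl1.L signals were 432.2, 460.8, 304 and 197.2 in untreated and 1126 and 1208.9 in NICD explants. All NICD values exceeded all untreated values, with a log2 change of 1.72 ± 0.32 (SE; limma adjusted p = 0.00255), 1.28 within day 1 and 2.16 within day 2. The lysyl hydroxylase plod3.L, which in mammals also adds sugars to collagen, read 1619.3, 1396.3, 1174 and 1322.8 in untreated and 908.8 and 690.3 in NICD explants. The NICD arrays were below all untreated arrays, with a log2 change of -0.77 ± 0.23 (SE; limma adjusted p = 0.0285). That call was not kept without NICD 2 (limma adjusted p = 0.212) or without untreated 1, 2 or 4 (0.0682, 0.0604 and 0.0516). The prolyl hydroxylase subunit p4ha2.L and the lysyl hydroxylase plod1.S reached at most 78.9 in any array and were not tested.

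**Figure D3:**
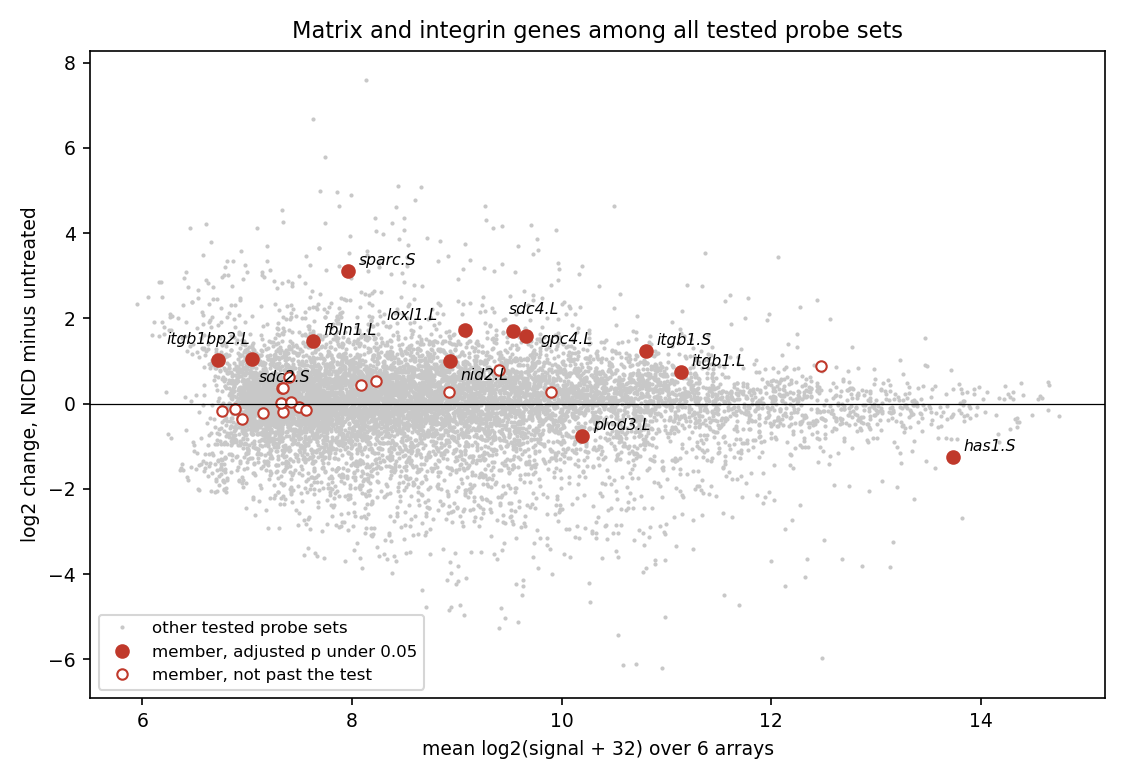
Log2 change against mean log2(signal + 32) over the 6 arrays for all 10368 tested probe sets (grey) and the 30 tested matrix and integrin genes (red; filled if past the test). The 10 higher members lie between 0.74 and 3.11, inside the cloud of all probe sets, and has1.S lies at the bright end at -1.25.

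Both homeologs had a tested probe set of their own for 5 members. The difference between the changes of the L and the S copy was -3.24 for sparc, 1.43 for sdc4, -0.77 for sdc2, -0.49 for itgb1 and -0.18 for col18a1, on the log2 scale. For sparc the L minus S value, relative to its untreated mean, was -0.29 to 0.68 in untreated explants and -2.94 and -3.55 in NICD explants 1 and 2. For sdc4 it was -0.26 to 0.14 in untreated and 1.18 and 1.68 in NICD explants. An exact permutation test over samples, 2-sided, gave p = 0.0667 for sparc and for sdc4, the smallest p that 4 against 2 samples allow, and an adjusted p of 0.1667 over the 5 pairs. The exact permutation p was 0.1333 for sdc2 and itgb1 and 0.3333 for col18a1. Where one copy was faint, as for sparc.L, probes that work poorly and a copy that is little expressed cannot be told apart.

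**Figure D4:**
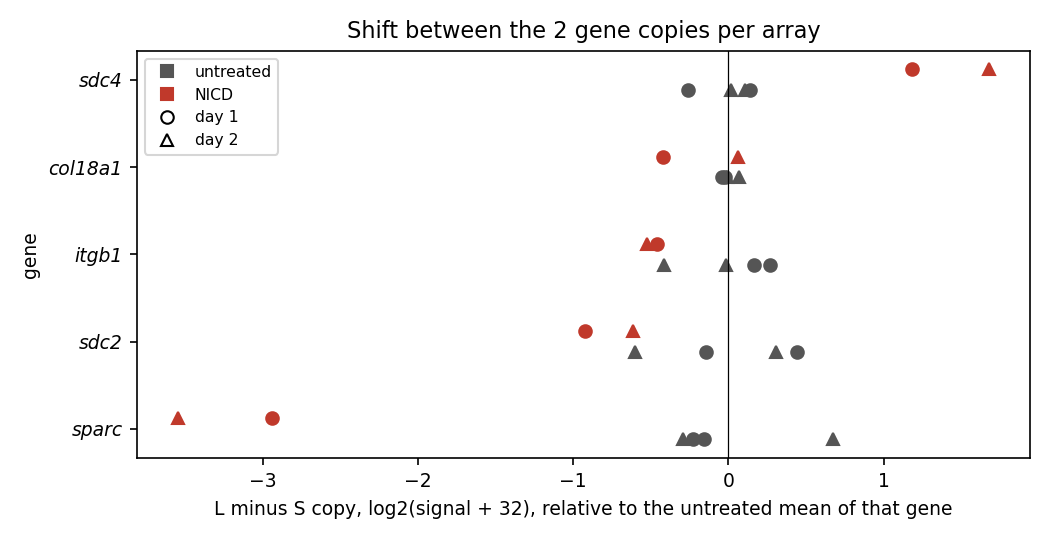
L minus S difference of log2(signal + 32) in each array, set to 0 at the untreated mean of each gene, for the 5 members with both copies tested (4 untreated and 2 NICD arrays; circles day 1, triangles day 2). NICD arrays of sparc (-2.94 and -3.55) and sdc4 (1.18 and 1.68) lie farthest from their untreated arrays.

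The untreated arrays of the 2 processing days did not overlap for fn1.S, fbln1.L and sdc4.L. The same held for other members such as nid2.L, loxl1.L, has1.S, plod3.L, sdc4.S and itgb3.L. How often it held over all probe sets was not counted. In a fit with day and treatment together, 0 of the 30 members passed for the day at an adjusted p under 0.05 in limma (1.90% of all probe sets), and 5 did at an unadjusted p under 0.05 (20.7% of all). Among the 30 tested members, the coefficient of variation over the 4 untreated arrays was highest for itgb3.L (55.5%), sparc.S (54.2%) and fbln1.L (54.0%) and lowest for col4a2.L (4.39%).

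Other genes that process, cut or sense the matrix were called in both directions. Of 29 tested genes of focal adhesions and integrin signalling, 10 rose and 7 fell, with a median of 0.02, where 15.3% of all probe sets rose and 16.2% fell. The largest increases were those of rapgef1.S (2.30 ± 0.25, SE), an exchange factor that activates the small GTPase Rap1, which in turn activates integrins, and of fermt2.L, kindlin 2 (1.46 ± 0.28, SE). The largest decrease was that of fermt1.S, kindlin 1 (-1.44 ± 0.30, SE), the kindlin of mammalian skin epithelium; kindlins bind beta integrin tails and activate them. The limma adjusted p was 0.000131, 0.00329 and 0.00491, in the same order. The rapgef1.S probe set, 1 of 3 of that symbol, is named as one whose probes may detect other transcripts, so its identity is less sure. The signal of fermt2.L was 71.9 to 145.7 in untreated explants and 304.9 and 445.8 in NICD explants, and that of fermt1.S was 215.9 to 499.5 against 107.7 and 90.7, with no overlap of groups for either. Without NICD 2 neither kindlin call was kept, with log2 changes of 1.21 for fermt2.L and -1.35 for fermt1.S. Without untreated 1, 3 or 4, 6 genes of the list were higher. For those fits alone no share of all probe sets is given, so that count cannot be weighed.

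The counts of the 3 other lists stand beside the same shares of all probe sets, 15.3% higher and 16.2% lower. Of 7 tested matrix proteases and inhibitors, 1 rose and 1 fell. The membrane-bound collagenase mmp14.L read 101.9, 76.8, 63.9 and 78.8 in untreated and 711.9 and 1449.9 in NICD explants, a log2 change of 3.23 ± 0.30 (SE; limma adjusted p = 4.84e-05), with 2.62 within day 1 and 3.85 within day 2. The stromelysin mmp3.L read 265.8, 157, 681.4 and 399.3 in untreated and 37.2 and 6.2 in NICD explants, a log2 change of -2.82 ± 0.47 (SE; limma adjusted p = 0.00146). Without NICD 1, 2 members of the list were lower. Of 13 tested genes of collagen processing, 1 rose and 2 fell, with a median of 0.01: the tolloid protease tll1.S changed by -2.33, the disulfide isomerase p4hb.L, also the beta subunit of prolyl hydroxylase, by -0.83, and the collagen galactosyltransferase colgalt1.S by 1.01. Only tll1.S of these 3 kept its call without NICD 2 (limma adjusted p = 0.0849 for p4hb.L and 0.145 for colgalt1.S), and colgalt1.S also lost it without NICD 1 (0.0594). Of 9 other matrix genes tested, 2 rose and 1 fell: the hyaluronidase family member hyal2.S (2.50 ± 0.22, SE) and the hyaluronan receptor hmmr.L (1.53 ± 0.34, SE; limma adjusted p = 0.076 without NICD 1) rose, and ccn1.S, a matricellular protein that binds integrins, fell (-1.46 ± 0.23, SE). The other copy of hyal2.S, hyal2.L, did not pass, with a log2 change of -0.09 (95% interval -0.66 to 0.48) and overlapping groups. As their untreated arrays were all under the 40th percentile, mmp14.L, hyal2.S and colgalt1.S entered the test only through NICD arrays. With no filter their limma adjusted p was 0.000134, 0.000115 and 0.0271.

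**Figure D5:**
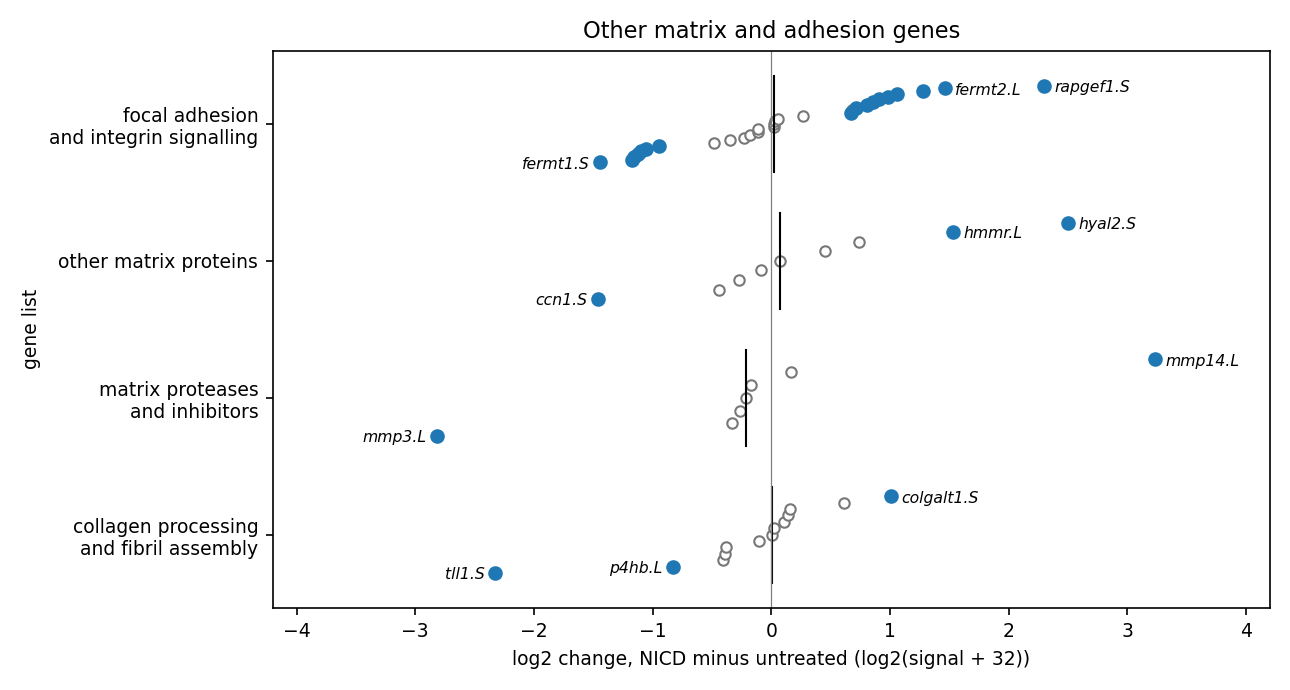
Log2 change (NICD minus untreated, log2(signal + 32)) of the tested genes of 4 other matrix and adhesion lists, 1 point per gene (filled if past the test in limma), with the list median as a black line. The medians lie between -0.21 and 0.07, with genes past the test on both sides of 0 in each list.

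Marker lists of several tissues moved with the groups, beside 15.3% of all probe sets higher and 16.2% lower. Of 14 tested neural progenitor markers 11 rose and 0 fell. The signal summed over the 18 on the array was 2814 to 3546 in untreated arrays and 32310 and 36120 in NICD 1 and 2. Large parts of the NICD sums came from hes5.1.L (7762.4 and 11201.5), gmnn.L (4308.4 and 4924) and gmnn.S (4003.3 and 6592.1). Whether these rose as targets of NICD or with a change of cell type was not tested. All 3 tested notochord and organizer markers, not.L, not.S and tbxt.S, rose, with sums of 493.5 to 584.2 against 2875 and 4925 over the 7 on the array. The notochord marker shh.L was too faint to be tested, at 6.2 to 45.6 in untreated and 76.8 and 13.7 in NICD explants. The other untested markers of that list, cav1.L, ptch1.S and nog.L, had overlapping groups. Of 7 tested early mesoderm markers 6 rose, with sums of 863.1 to 1036 against 2930 and 4257 over the 15 on the array. Of the untested ones, mix1.L had both NICD arrays below the untreated range, at 46.2 and 21.4 against 55.8 to 103.2. The others, mix1.S, mixer.L, mixer.S, gsc.L, gsc.S, eomes.L and bix1.1.L, had overlapping groups. Of 19 tested markers of larval epidermis 15 fell, with sums of 126600 to 189000 against 69370 and 72170. Of 5 tested muscle markers 2 fell, and of 4 tested blood and endothelium markers 0 rose and 0 fell (also 0 at an unadjusted p under 0.05 in limma). Of 11 tested neural crest markers 4 rose and 2 fell, and of 7 tested endoderm markers 3 rose and 2 fell. Some untested markers passed with no filter, where 10.2% of all probe sets rose and 10.6% fell. The blood list marker fli1.S rose by 1.1 (limma adjusted p = 0.00442). The crest marker snai2.L changed by -0.96 (limma adjusted p = 0.0203) and the endoderm marker gata6.S by -1.18 (0.00832). Some markers that rose count in a pair of lists, vegt.L and vegt.S in early mesoderm and endoderm, tbxt.S in early mesoderm and notochord, and zic1.S in neural crest and neural progenitors. Through their NICD arrays alone, not.L, vegt.L, vegt.S, fgf8.L, zic1.S, zic2.L, hes5.1.L and pax3.S entered the test. The markers cdx4.L, wnt8a.L, sox9.S and zic5.S each had only 1 untreated array above the 40th percentile. They also needed an NICD array to enter. The tested markers are therefore not a neutral sample of their lists. With no filter each of these passed, with a limma adjusted p of at most 0.0459 (vegt.S). Epidermis is the fate of isolated animal pole tissue, and its markers had the largest summed signal of the 8 lists in the untreated arrays. The part of these cell types in the changes of matrix genes was not tested.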

How the data were processed

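The authors deposited MAS5 signal intensities, scaled to a trimmed mean of 500.1 on each of 6 arrays, in 1 table; MAS5 is named per the submitters' processing notes. The total RNA (1 µg) was amplified and biotinylated, per the labels' protocols. The day and fluidics module were read from the deposited experiment files, whose other text entries hold no measurement. Of 15611 probe sets, 120 controls were left out. Genes were named through the platform annotation, in which 9304 probe sets have 1 symbol, 195 several and 5992 none; 69 of the 71 symbols matched the RefSeq table of the assembly Xenopus_laevis_v10.1, and 0 were renamed. A further 5 probe sets carried several symbols, at least 1 of them a member symbol, and were not named.

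Values were tested as log2(signal + 32) with limma 3.58.1 in R 4.3.3 (lmFit, eBayes with trend, 2-sided, Benjamini-Hochberg over all tested probe sets), after a check on simulated data. Intervals are 95% intervals of limma. Alternatives changed the pseudocount, filter, normalization, weights, trend, probe set choice, block and arrays. Reading each probe set singly, and the day difference, were added after seeing the data.

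The members, gene lists and rules were chosen with earlier results of these data known. Named genes were, per role, up to 4 past the test with the largest change and groups that did not overlap, the brightest member not past it, their homeologs, all tested integrins, syndecans and glypicans, and up to 3 genes of each other list; other members are named with their values known.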

Additional observations from a re-analysis of the deposited data

Results flagged for a closer look

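In untreated explants, itgb1.S, the S copy of the integrin beta 1 subunit, had 1 sample far from the others. Untreated 4 read 1847.4, against 1157.9 to 1178.2 in the other untreated arrays, and its gap to the nearest was 0.963 of the range, above Dixon's 95% critical value for 4 samples. Among the 30 tested members it was the only one, and chance gives such a gap in about 1 of 20 groups. Both NICD arrays (2955 and 3299.9) lay above it, and without untreated 4 itgb1.S stayed past the test.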

How the results depend on the processing

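Of the 12 called members, 5 (gpc4.L, loxl1.L, itgb1.S, sparc.S and has1.S) kept their call in all 16 to 18 alternatives run for each, 7 lost it in some, and 0 turned sign. Of the 18 uncalled members, 16 were never called. The median change of the tested members was 0.83 with a filter at the 60th percentile and 0.07 with no filter, and 1 member was lower with a 2-fold minimum. Leaving out each array in turn gave 4 to 12 members higher, 1 to 2 lower and a median of 0.34 to 0.54, and 756 to 1545 probe sets higher and 927 to 1563 lower of all. Quantile normalization (limma adjusted p = 0.0323) and the mean over its probe sets (0.0234) brought fn1.S past the test, and the latter ended the calls of itgb1.L (0.0965) and hmmr.L (0.0628). The cause of these shifts was not tested.

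Signs turned for uncalled members near 0. Leaving out each array in turn gave log2 changes of -0.32 (without NICD 1) to 0.33 (without NICD 2) for col4a1.L, which was -0.15 without untreated 1. The range was -0.46 to 0.28 for col4a2.L, -0.39 to 0.11 for col1a2.L and -0.42 to 0.08 for itgav-a, from without NICD 1 to without NICD 2. For itgb3.L it was -0.17 (without untreated 2) to 0.27, with -0.16 without untreated 1 and -0.03 without NICD 2. As the mean over the probe sets of a symbol, the change was -0.04 for col4a1.L, -0.15 for itgb3.L and -0.34 for itga5.L.

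For collagen processing, the filter at the 60th percentile left 0 higher and a median of -0.38; leaving out arrays gave 0 to 1 higher, 1 to 2 lower and a median of -0.20 to 0.11. For proteases, the median was 0.12 with no filter, and leaving out arrays gave 1 to 2 lower and a median of -0.37 to 0.12. For other matrix genes, the median was 0.74 with the stricter filter and -0.04 with no filter, and leaving out arrays gave 1 to 3 higher and a median of -0.15 to 0.28. For focal adhesion genes, array weights gave 6 higher, the stricter filter 4 lower and a median of 0.27, quantile normalization a median of -0.01, and leaving out arrays 2 to 7 higher, 1 to 6 lower and a median of -0.06 to 0.21.

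The replicate numbers were not taken to pair samples: deviations correlated at 0.198 for number 1 and -0.231 for number 2. With 2 NICD arrays the NICD deviations mirror each other, so these values are not separate checks. NICD 1 correlated at 0.198 and 0.231 with untreated 1 and 2, of its own day. With untreated 3 and 4, of the other day, its values were -0.123 and -0.283. With the replicate number as a replicate block, 1 called member, itgb1.L, lost its call (limma adjusted p = 0.0652) and 0 gained one. In that fit 6 focal adhesion genes were higher, the protease median was -0.13 and itga6.L changed by 0.0. Shares of all probe sets are not given for the replicate block, the array weights or the stricter filter. Counts of genes called in those fits therefore cannot be weighed. Low signal limits what can be said of the 41 untested members, of which matn4.L passed with no filter. A second, fainter probe set of thrombospondin 3, thbs3.L, also passed with no filter (limma adjusted p = 0.0259), while its brightest probe set did not (0.138).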
